A study of Mus musculus with 8 samples.

Results

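The genes described here are 33 genes of the endoplasmic reticulum (ER) that encode its folding chaperones, the sensors of the unfolded protein response, and the retrieval, degradation and translocation machinery around them. They were taken by symbol from the feature tables of 8 single-cell RNA-seq libraries, where 33 of 33 had a row among 31053 genes. Each library came from a large B16F10 tumour of about 300 mm3, grown under the skin of a 12-week-old mouse. B16F10 is a mouse melanoma line, and its cells do not carry the host's genotype. The hosts were of the genotype Atf4wt/wt (4 tumours, 2 from males and 2 from females) or Atf4D/D (4 tumours, 3 from males and 1 from a female). Per the study's methods, mice of both genotypes carried the Rosa26::CreERT2 transgene and received tamoxifen, which removed the floxed Atf4 exons in the Atf4D/D hosts. Rosa26 is active in nearly all tissues, so the deletion is not limited to any cell type of the host.

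The ER folds secreted and membrane proteins. When unfolded chains pile up there, BiP, the Hspa5 product, leaves the sensors IRE1 (Ern1), PERK (Eif2ak3) and ATF6 (Atf6). IRE1 splices the Xbp1 mRNA, ATF6 is cut to release a transcription factor, and PERK phosphorylates eIF2alpha, which slows translation and raises ATF4, the transcription factor deleted in these hosts. Melanocytes and fibroblasts both load the ER heavily, the former with melanosome proteins and the latter with collagen.

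Of 41925 deposited barcodes, 28411 passed the study's limits on gene number and mitochondrial share, 2709 to 5576 per tumour, from libraries of 37283598 to 74942137 UMIs (unique molecular identifiers, each standing for 1 captured mRNA molecule). Clusters were found with the 33 genes and the other listed ER genes left out of the variable genes. They gave 23676 melanoma-like, 650 CAF-like (cancer-associated fibroblast), 321 TAM-like (tumour-associated macrophage), 88 T/NK-like and 37 Endothelial-like cells. Melanoma-like clusters were named from melanoma markers detected in most of their cells and from their UMIs per cell. The other classes were named from markers among their leading genes. For a TAM-like subcluster of 37 cells, led by Cenpe and Cenpf, these were its leading genes against the cells that are not immune. The T/NK-like cluster was led by Nkg7, Ms4a4b, Trbc2 and Cd3g and had 3942 CPM of the T/NK list, but it also had 37107 CPM of the listed B-cell and plasma-cell genes, 8 of 11 of them with UMIs, against 31.8 CPM in TAM-like cells. A further 490 immune cells and 2825 cells of low-UMI clusters stayed unnamed, and 96 of 28315 distinct barcodes occurred in more than 1 library. No doublet caller was run, and a subcluster of 81 cells with both collagen and melanoma markers was kept apart. Melanoma RNA was found in the barcodes of the host classes. Dct, a pigment gene, stood in CAF-like cells at 3.92% and in TAM-like cells at 6.22% of its melanoma-like level. It stood at 12.6% in T/NK-like and 23.5% in Endothelial-like cells. Whether this was free RNA or came from doublets was not tested. All 10 melanoma markers had UMIs in both CAF-like and TAM-like cells, summing to 693 and 1089 CPM against 14605 CPM in melanoma-like cells. The part of this RNA in the levels below was not tested. Col1a1, the collagen gene that marks CAFs, stood in melanoma-like cells at 0.0348% of its CAF-like level. All levels below are CPM, the UMIs of a gene per 1000000 UMIs of the cells named, summed within a tumour. The reads tag the 3′ end of each mRNA, so levels are not scaled by length, different genes are not ranked by level, and spliced and unspliced Xbp1 are counted together.

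The promoters of these genes are shown because they carry the response elements by which the family is usually recognised. RefSeq promoters on GRCm38.p6, 250 bases before to 50 after each start, were available for 26 of the 33 genes, and those of Manf, Hyou1, Atf6, Derl1, Kdelr2, Sec61a1 and Ppp1r15b were not used here. The ER stress response element (ERSE), searched on both strands as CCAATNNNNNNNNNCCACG, was found in 39 of 32851 promoters (0.119%), and 9 of the 26 genes were among them. The sites follow with the CCAAT and CCACG boxes in capitals, each read 5′ to 3′ on the strand that carries the motif:
Hspa5, chr2:34772025-34772043, plus strand: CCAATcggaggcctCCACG
Hsp90b1, chr10:86705638-86705656, minus strand: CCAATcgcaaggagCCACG
Hsp90b1, chr10:86705533-86705551, plus strand: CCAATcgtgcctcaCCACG
Calr, chr8:84847075-84847093, plus strand: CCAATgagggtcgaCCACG
Canx, chr11:50325800-50325818, minus strand: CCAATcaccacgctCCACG
Pdia6, chr12:17266491-17266509, plus strand: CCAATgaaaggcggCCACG
Dnajc3, chr14:118937827-118937845, plus strand: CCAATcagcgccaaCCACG
Creld2, chr15:88819520-88819538, minus strand: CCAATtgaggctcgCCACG
Syvn1, chr19:6046532-6046550, plus strand: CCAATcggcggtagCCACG
Derl3, chr10:75893242-75893260, minus strand: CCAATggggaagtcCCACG

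All 10 copies lay upstream of the start site, with 25 bases between site and start in Syvn1, 46 in Hspa5 and 193 for the farther copy of Hsp90b1. The shorter ERSE-II, ATTGGNCCACG, was found in 12 of 32851 promoters (0.0365%), including those of Herpud1 and Dnajb11:
Herpud1, chr8:94386377-94386387, plus strand: ATTGGgCCACG
Dnajb11, chr16:22857852-22857862, plus strand: ATTGGcCCACG

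The XBP1-type element TGACGTGG stood in the Kdelr3 promoter (chr15:79516378-79516385, minus strand) and in 0.676% of all promoters. The sequence TTGCATCA, a C/EBP-ATF composite element of the kind bound by ATF4, stood in that of Herpud1 (chr8:94386317-94386324, plus strand) and in 0.895% of all promoters. The 250 bases upstream of Hspa5 (chr2:34771840-34772089, plus strand) and of Herpud1 (chr8:94386179-94386428, plus strand) are given whole, because these genes recur in the comparisons below, with the ERSE or ERSE-II boxes in capitals:
Hspa5: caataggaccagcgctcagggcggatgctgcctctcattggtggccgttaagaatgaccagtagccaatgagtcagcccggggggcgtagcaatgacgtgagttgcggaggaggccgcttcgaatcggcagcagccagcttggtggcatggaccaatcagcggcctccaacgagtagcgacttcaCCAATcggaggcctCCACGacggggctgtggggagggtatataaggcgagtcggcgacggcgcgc
Herpud1: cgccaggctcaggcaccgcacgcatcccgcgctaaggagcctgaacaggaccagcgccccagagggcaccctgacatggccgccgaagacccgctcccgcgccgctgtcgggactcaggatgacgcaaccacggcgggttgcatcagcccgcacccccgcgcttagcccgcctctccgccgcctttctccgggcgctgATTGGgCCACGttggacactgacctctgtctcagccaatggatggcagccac

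A match of letters is a description of the promoter and not a measured binding site.

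Among the melanoma-like cells the 33 genes had their highest summed level in a state of 3066 cells led by Nupr1, Azgp1, Grb14, Cyb5r1 and Akr1b7, here called the Nupr1-led state. Their lowest level was in a state of 3361 cells led by Espn, Ero1l, Selenbp1, Car9 and Bnip3, here called the hypoxia-gene state. The summed level pooled over tumours was 17953 CPM in the Nupr1-led state and 6611 CPM in the hypoxia-gene state. The other states lay between, from 7164 CPM in the Lgals3-led to 8966 CPM in the Mgll-led state, with 7602 in the Cenpf-led, 8512 in the Uhrf1-led, 8575 in the Ifit1-led and 8933 in the Cenpa-led state. Within tumours the Nupr1-led level was 2.78, 2.87, 2.65 and 2.59 times the hypoxia-gene level in the Atf4wt/wt tumours and 3.33, 2.32, 2.48 and 3.01 times in the Atf4D/D tumours. Both states were chosen by this sum, so the differences of the members between them are a description without a test. The median depth was 9194.5 UMIs per cell in the Nupr1-led, 8534 in the hypoxia-gene and 14181 in the Cenpf-led cells. Their median mitochondrial shares were 4.86%, 5.53% and 5.57%. The part of depth in these levels was not tested.

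**Figure D1:**
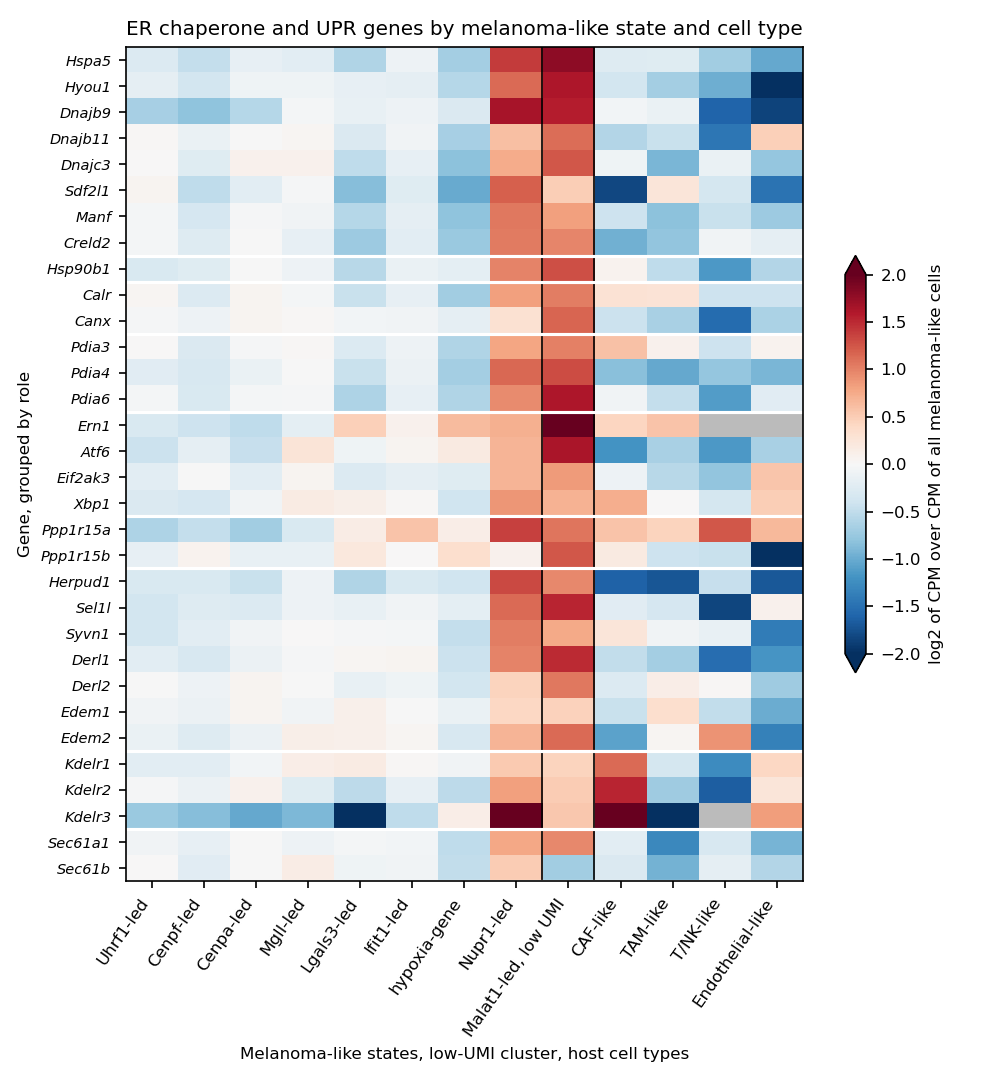
Heat map of log2 CPM in each of 8 melanoma-like states, the Malat1-led low-UMI cluster and 4 host cell types, over the CPM of all melanoma-like cells, pooled over tumours, for 32 genes grouped by role (Derl3 is left out); grey cells have 0 UMIs and colours stop at a log2 of 2 either way. The Nupr1-led column is the highest of the 8 melanoma-like states for 31 genes, and the CAF-like column is high for the KDEL receptors.

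Hspa5 encodes BiP, the Hsp70 of the ER. In the Nupr1-led state it stood at 4007, 3987, 3909 and 4380.2 CPM in the Atf4wt/wt tumours and at 4250.5, 2745, 3522 and 4078 CPM in the Atf4D/D tumours. In the other melanoma-like cells of the same tumours it stood at 1178, 1127, 1314 and 1464 CPM and at 922, 1222, 1101 and 951 CPM. The lowest Nupr1-led value thus lay above the highest value outside the state, and the pooled ratio was 3.34.

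Counted over the family, 30 of the 31 genes with a mean of at least 10 CPM were higher in the Nupr1-led state than in the other melanoma-like cells in all 8 tumours, and none was lower in all 8. Of 7732 genes compared the same way, 21.8% were higher and 37.9% were lower in every tumour, and the median log2 ratio was 1.04 for the members and −0.11 for all genes. Ern1 and Derl3 fell below the level limit. The exception was Ppp1r15b, the constitutive subunit that targets a phosphatase to eIF2alpha, which was higher in 5 tumours and lower in 3, with a ratio of 1.07. Its inducible counterpart Ppp1r15a, also known as GADD34, had a ratio of 3.23.

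BiP works with J-domain partners and cofactors, and all 8 genes of this group were higher, with ratios of 1.63 to 4.29. Dnajb9 (ERdj4), a J protein that also acts on IRE1, had the highest ratio of the group, 4.29, with 157 to 244 CPM in the state against 30.8 to 62.6 CPM outside it. Hspa5 itself had 3.34 and Sdf2l1, a partner of ER J proteins, 2.74. Hyou1, the nucleotide exchange factor of BiP, had a ratio of 2.57. Manf, a secreted ER factor that binds BiP, had 2.41, and Creld2, an ER protein with isomerase activity, 2.38. The J proteins Dnajc3 (p58IPK) and Dnajb11 (ERdj3) lay lower, at 1.84 and 1.63.

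Hsp90b1, which encodes GRP94, the Hsp90 of the ER, was at 1910 to 3153 CPM in the Nupr1-led state and at 1027 to 1227 CPM outside it, a ratio of 2.28. The lectin chaperones that hold glycoproteins differed from each other, with a ratio of 1.94 for Calr and 1.27 for Canx, whose levels of 572 to 679 CPM and 450 to 565 CPM did not overlap. The disulfide isomerases Pdia4, Pdia6 and Pdia3, which pair cysteines in folding proteins, had ratios of 2.62, 2.18 and 1.91.

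Among the sensors and the factor Xbp1, the ratios were 2.05 for Xbp1, 1.74 for Eif2ak3 and 1.73 for Atf6, all below that of Hspa5. Ern1 stood at 8.18 to 16.5 CPM in the state and 5.43 to 8.20 CPM outside it.

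ER-associated degradation (ERAD) returns misfolded chains to the cytosol for the proteasome, and 7 of 7 compared genes of this group were higher. Herpud1, an adaptor of the HRD1 ligase, had a ratio of 3.08, with 269 to 528 CPM in the state against 108 to 163 CPM outside it. The ligase Syvn1 (HRD1) had 2.35 and its partner Sel1l 2.57. Of the derlins, which help chains cross the membrane, Derl1 had 2.27 and Derl2 1.43. Edem2 and Edem1, which trim mannose from glycoproteins bound for degradation, had 1.74 and 1.39.

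The KDEL receptors carry escaped ER proteins back from the Golgi, and they showed the widest spread of any group. Kdelr3 had the highest ratio of all members, 6.42. It stood at 114, 169, 97.4 and 119 CPM in the Nupr1-led cells of the Atf4wt/wt tumours and at 146, 63.0, 101 and 148 CPM in those of the Atf4D/D tumours, against 14.7 to 25.6 CPM outside the state. Kdelr2 had 1.96 and Kdelr1 1.52. The translocon subunits Sec61a1 and Sec61b, part of the channel through which chains enter the ER, had 1.87 and 1.5.

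**Figure D2:**
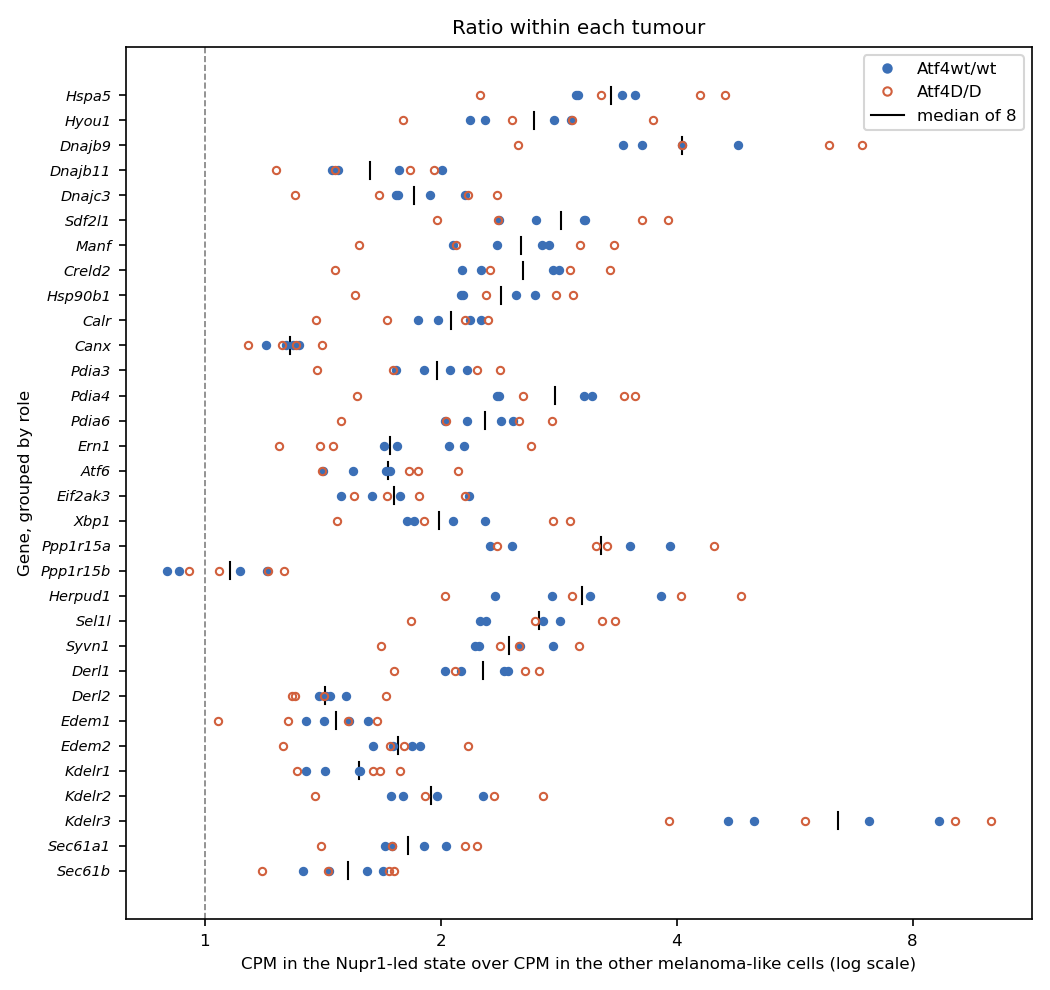
Ratio of CPM in the Nupr1-led state to CPM in the other melanoma-like cells of the same tumour on a log axis, with 1 point per tumour and gene, coloured by host genotype; the dashed line marks a ratio of 1. Kdelr3 and Dnajb9 lie farthest right in the pooled ratio (6.42 and 4.29), and Ppp1r15b is the only compared gene with tumours on either side of the line.

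Of the 8 compared members with an ERSE in the promoter, ratios ran from 1.27 to 3.34 with a median of 2.23. The 16 compared members with a promoter entry and no ERSE ran from 1.39 to 6.42 with a median of 1.98. Kdelr3, Dnajb9, Ppp1r15a and Sdf2l1 had high ratios without an exact ERSE match in this window. Sites with a mismatch were not searched. Across the genome 14 genes with an ERSE could be compared and 12 of them (85.7%) were higher in every tumour, of which 8 are members. Of the 6 others, Alg12 (log2 ratio 1.05) and the near-identical copies Xlr3a, Xlr3b and Xlr3c, among which reads may be split, were higher in every tumour, while Adcy3 was not and Hnrnpa3 was lower (log2 ratio −0.59). For the other motifs, 6 of 8 compared genes with ERSE-II, 37 of 75 with TGACGTGG and 27 of 46 with TTGCATCA were higher in every tumour. Of all genes compared, 21.8% were.

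Related gene lists differed in the same comparison. Of the other ER folding genes, 21 of 24 were higher in every tumour and 0 lower, of ER entry and glycosylation genes 22 of 24 and 1, of ER-to-Golgi transport genes 17 of 18 and 0, and of other ERAD genes 12 of 18 and 0. Of the targets of ATF4 and CHOP, 20 of 22 were higher and 0 lower, with a median log2 ratio of 1.34. Unlike the ER folding, ERAD and ER entry lists, this list was not left out of the clustering. Nupr1, Cth and Ddit3 are among the leading genes of the state, so this count only describes the state. The transport, heat shock, hypoxia, G2 and M and interferon lists were not left out either. Fgf21, Nupr1 and Cth were highest in the Nupr1-led state, and the lowest of the 8 states was a different one for each gene. Fgf21 stood at 79.5 CPM against 0.690 CPM in its lowest state, Nupr1, which leads the state, at 735 against 96.2 CPM and Cth, which makes cysteine, at 138 against 18.7 CPM. The cytosolic heat shock genes went the other way, with 1 of 12 higher and 9 lower, while 3 of 10 hypoxia genes were higher and 2 lower. All 7 of the listed genes of the G2 and M phases were lower, as were 3 of 5 interferon genes. Selenos, an ERAD gene, differed 3.96-fold and Ssr2, a translocon-associated gene, 2.70-fold between their highest and lowest states, and both were highest in the Nupr1-led state.

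The hypoxia-gene state held the lowest level of 20 members. It was chosen by the lowest sum of the members, so this count follows in part from that choice. The share of all genes with their lowest level there was not counted. All 10 compared hypoxia genes were higher there than in the remaining states outside the Nupr1-led state, in every tumour. The hypoxia genes were not left out of the clustering, and Car9 and Bnip3 lead the state, so this count only describes the state. Of 31 compared members, 4 were higher and 20 lower in all 8 tumours, where 19.0% and 37.1% of 7732 genes were, and the median log2 ratio was −0.32 against −0.11 for all genes. Of BiP and its partners, 7 of 8 were lower: Sdf2l1 had a ratio of 0.559, Dnajc3 0.583, Manf 0.629 and Hspa5 0.766. The 4 higher genes were Kdelr3 (2.00), Ppp1r15a (1.46), Ppp1r15b (1.32) and Atf6 (1.27). Hsp90b1 had a ratio of 1.00 and was higher in 4 tumours and lower in 4. The oxidase gene Ero1l, which passes electrons on from the disulfide isomerases and is no member, had its highest level in this state, 1414 CPM, where Pdia3, Pdia4 and Pdia6 all stood at 0.697 to 0.719 of their level in the remaining states.

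The members did not all follow Hspa5 over the 8 melanoma-like states. The within-tumour Spearman rho of each gene with Hspa5 over 8 states, taken as the median of the 8 tumours, was over 0.7 for 15 members. It was highest for Pdia6 (0.917), Manf (0.881), Dnajc3 (0.881) and Calr (0.857). Low values were 0.143 for Ppp1r15a, 0.0595 for Atf6, −0.107 for Ern1 and −0.381 for Ppp1r15b. The share of all genes over 0.7 was not counted. Listed genes outside the family also stood over it, such as Sec31a (0.869), Spcs2 (0.845) and Hspe1 (0.845). Others did not, such as Ero1l (−0.155). The states of a tumour share a library, and they differ in depth, so these values are given without a test.

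The 8 tumours did not hold the Nupr1-led state in equal share. It made up 7.66%, 10.2%, 20.6% and 23.4% of melanoma-like cells in the Atf4wt/wt tumours (15.5% ± 7.68, SD, n = 4) and 11.9%, 18.1%, 10.7% and 7.60% in the Atf4D/D tumours (12.1% ± 4.40, n = 4). The groups overlapped, and the difference of −3.38 points was within the spread between tumours (exact two-sided permutation test over 70 assignments, p = 0.457, where the smallest p possible is 0.0286). It was −0.74 points without Atf4wt/wt replicate 4, −1.68 without Atf4wt/wt replicate 3, −1.88 without Atf4D/D replicate 4, −5.12 without Atf4wt/wt replicate 2, −5.38 without Atf4D/D replicate 2 and −5.98 without Atf4wt/wt replicate 1, with exact p of 0.229 or more in each. The exact binomial intervals of the shares were narrow by comparison, for example 6.93% to 8.45% in Atf4wt/wt replicate 1, and cover counting error only.

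**Figure D3:**
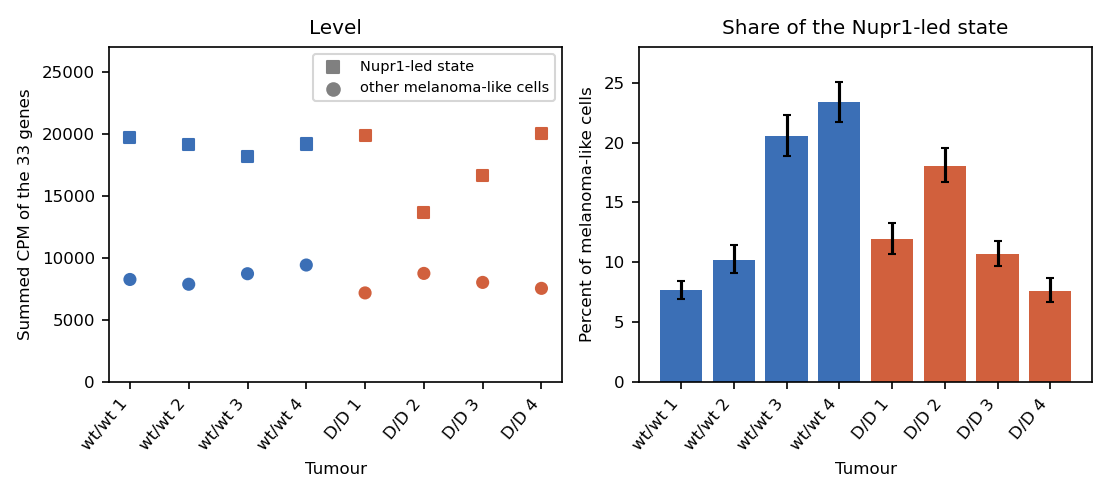
Left, summed CPM of the 33 genes inside (squares) and outside (circles) the Nupr1-led state in each of the 8 tumours; right, the state's percent of melanoma-like cells as bars from 0 with exact 95% binomial intervals, coloured by host genotype. Levels inside the state lie between 13639 and 19988 CPM and outside it between 7174 and 9423 CPM, while the share runs from 7.60% to 23.4%.

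Inside the state the summed level was 19704, 19117, 18164 and 19179 CPM in the Atf4wt/wt tumours and 19897, 13639, 16669 and 19988 CPM in the Atf4D/D tumours. Atf4D/D replicate 2 was the lowest inside the state, and its ratio of Hspa5 inside to outside was the lowest too, 2.25 against 2.97 to 4.61 in the other tumours.

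A Malat1-led cluster of 939 cells, left unnamed because its median was 1565 UMIs per cell, had the highest summed level of any cluster, 20878 CPM pooled and 14154 to 27289 CPM by tumour. Its median mitochondrial share was 0.475%. Of 32 compared members, 21 were higher than in melanoma-like cells in all 8 tumours and 1 was lower, where 12.4% and 19.6% of 7981 genes were. The median log2 ratio was 1.06 for the members and −0.07 for all genes. Ern1 had a ratio of 4.96 on 57 UMIs, Hspa5 3.46, Atf6 3.11, Pdia6 3.07 and Hyou1 3.06. The lower gene was Sec61b, with 0.615, and no KDEL receptor was higher in all 8 tumours. The part of the low depth and low mitochondrial share in these values was not tested. The cluster held 1.24%, 1.59%, 6.73% and 9.19% of kept cells in the Atf4wt/wt tumours and 1.73%, 5.47%, 1.97% and 0.819% in the Atf4D/D tumours, highest in the tumours that also had the highest shares of the Nupr1-led state.

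The summed level was much the same in CAF-like cells as in melanoma-like cells, 9212 against 9259 CPM pooled, while single genes differed in both directions. Of 31 compared members, 6 were higher in CAF-like cells in all 8 tumours and 10 were lower, where 16.5% and 28.5% of 8357 genes were. The median log2 ratio was −0.23 for the members and −0.29 for all genes. Both the counts and the median lay near those of all genes, so they are not particular to the members.

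All KDEL receptors were among the 6. Kdelr3 stood at 274, 257, 356 and 265 CPM in the CAF-like cells of the Atf4wt/wt tumours and at 268, 292, 171 and 274 CPM in those of the Atf4D/D tumours, against 22.4 to 45.2 CPM in melanoma-like cells, a ratio of 9.85. Kdelr2 had a ratio of 2.88, with 348 to 540.0 CPM against 134 to 206 CPM, and Kdelr1 a ratio of 2.20, with 196 to 229 CPM against 90.6 to 108 CPM. In each of these genes the lowest CAF-like tumour lay above the highest melanoma-like tumour. The other 3 were Xbp1 (1.66), Pdia3 (1.49) and Calr (1.22).

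Lower in CAF-like cells were Sdf2l1 (0.282), Herpud1 (0.325), Edem2 (0.475), Creld2 (0.516), Dnajb11 (0.667), Derl1 (0.709), Canx (0.739), Manf (0.752), Sec61b (0.818) and Sec61a1 (0.859). Herpud1 stood at 37.4 to 109 CPM in CAF-like and at 136 to 224 CPM in melanoma-like cells. The ratios pool both genotypes, and 215 of the 650 CAF-like cells came from Atf4D/D replicate 4. By genotype, Herpud1 had means of 79.0 CPM in CAF-like and 184 CPM in melanoma-like cells of the Atf4wt/wt tumours. In the Atf4D/D tumours the means were 42.3 and 153 CPM. Hspa5 had a ratio of 0.836 and was lower in 6 of 8 tumours, and Hsp90b1 had a ratio of 1.05 and was lower in 4. Of the other lists, 11 of 24 ER folding genes and 8 of 18 ER-to-Golgi genes were higher in every tumour, and 13 of 21 ATF4 and CHOP targets were lower, with 1 higher.

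Subclusters of the CAF-like cells differed less. The summed level was 9872 CPM in the Lrrc15-led subcluster of 361 cells, 8740.1 CPM in the Cxcl13-led, 7921 CPM in the Pgf-led and 7805 CPM in the Rgs5-led subcluster, whose leading genes are markers of perivascular cells.

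**Figure D4:**
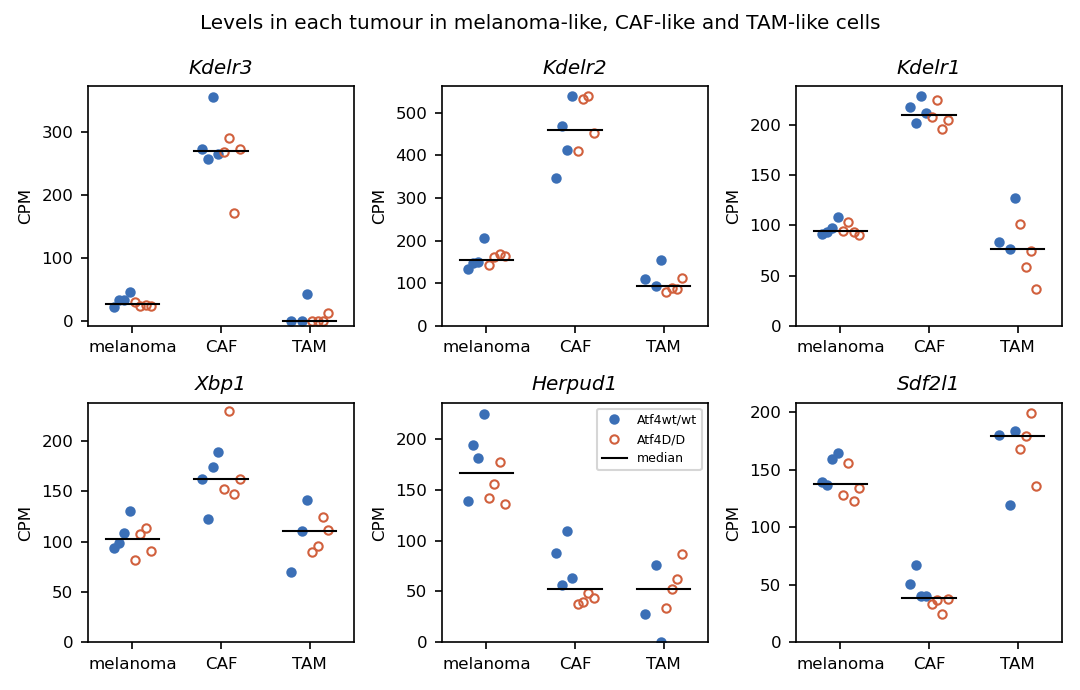
CPM of Kdelr3, Kdelr2, Kdelr1, Xbp1, Herpud1 and Sdf2l1 in melanoma-like, CAF-like and TAM-like cells, 1 point per tumour, coloured by host genotype; TAM-like cells are shown for 7 tumours. The KDEL receptors lie highest in CAF-like cells, Herpud1 lies highest in melanoma-like cells, and Sdf2l1 lies lowest in CAF-like cells.

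TAM-like cells had a summed level of 7093 CPM pooled and 6518 to 8080.5 CPM in the 7 tumours with at least 10 such cells. Atf4wt/wt replicate 2 had 7 TAM-like cells and does not enter. No member was higher than in melanoma-like cells in all 7 tumours and 14 of 31 were lower, where 13.9% and 25.5% of 8197 genes were. The median log2 ratio was −0.48 for the members and −0.26 for all genes. Kdelr3 was the lowest, with 4 UMIs in all and a ratio of 0.166. Herpud1 (0.306), Sec61a1 (0.411), Pdia4 (0.491) and Sec61b (0.519) followed. Sdf2l1 had a ratio of 1.19 and Calr 1.21, each higher in 6 of 7 tumours. The values of rare genes in TAM-like and CAF-like cells rest on few UMIs, and the part of melanoma RNA in them was not tested.

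The 88 T/NK-like and 37 Endothelial-like cells were few. The pooled summed level was 5959 CPM in T/NK-like cells, with 3937 to 9707 CPM in the 4 tumours with at least 10 such cells. It was 6386 CPM pooled in Endothelial-like cells, of which only Atf4wt/wt replicate 1 had at least 10 (6072 CPM). Hspa5 stood at 893 CPM pooled in T/NK-like cells, with 340 to 1397 CPM over the same 4 tumours, and at 711 CPM pooled in Endothelial-like cells. Atf4wt/wt replicate 3 was the highest in both T/NK-like ranges. Derl3, a derlin best known from secretory cells, had 1 UMI in melanoma-like cells, 1 in TAM-like, 1 in unnamed immune and 2 in the T/NK-like class, whose B-cell and plasma-cell RNA is given above and was not separated from that of T/NK cells. In CAF-like cells it had 0 of 2920985 UMIs, which allows up to 1.03 CPM.

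The study's contrast was the host genotype, and Atf4 itself checks the labels. In CAF-like cells Atf4 stood at 315, 268, 283 and 248 CPM in the Atf4wt/wt tumours and at 95.6, 75.7, 171 and 45.2 CPM in the Atf4D/D tumours, without overlap. The log2 difference (Atf4D/D minus Atf4wt/wt, also below) was −1.86 (SE 0.272, edgeR adjusted p = 0.0407). Replicate 3 of Atf4D/D had 10 CAF-like cells. Atf4 was the only gene that passed there, and no gene passed without Atf4wt/wt replicate 4 or without Atf4D/D replicate 1, 2 or 4. In melanoma-like cells, which are not of host origin, Atf4 stood at 358 ± 68.5 and 378 ± 63.9 CPM (SD, n = 4 each; log2 difference 0.03, edgeR adjusted p = 0.959). In TAM-like cells it stood at 173 ± 93.9 (n = 3) and 74.3 ± 43.6 CPM (n = 4), with a log2 difference of −1.34 that did not pass (edgeR adjusted p = 0.656).

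In melanoma-like cells no member passed the threshold of 0.05 on the adjusted p in edgeR, while 4 of 12555 genes did (0.0319%). At an unadjusted p under 0.05 stood 11 of the 32 tested members (34.4%) and 11.3% of all genes, all 11 with lower means in the Atf4D/D tumours, and DESeq2 called 2 members. The log2 differences ran from −0.44 to 0.13 with a median of −0.17, 3 of 32 were positive, and the median of all genes was −0.0044. Pdia6 stood at 609, 579, 695 and 712 CPM in the Atf4wt/wt and at 523, 568, 528 and 520 CPM in the Atf4D/D tumours, without overlap (log2 difference −0.32, SE 0.0772, edgeR adjusted p = 0.214, DESeq2 adjusted p = 0.0152). Sec61b stood at 985 ± 73.5 and 835 ± 47.9 CPM (−0.28, SE 0.0736, edgeR adjusted p = 0.239, DESeq2 adjusted p = 0.0285). Sec61b and Dnajb11 were also lower in the Atf4D/D tumours without overlap. Ppp1r15b went the other way without overlap, at 51.5 ± 2.03 CPM in the Atf4wt/wt and 57.4 ± 1.90 CPM in the Atf4D/D tumours. The share of all genes without overlap was not counted.

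Hspa5 in melanoma-like cells stood at 1357, 1395, 1786 and 2077 CPM in the Atf4wt/wt and at 1269, 1473, 1324 and 1154 CPM in the Atf4D/D tumours. The groups overlapped, and the log2 difference of −0.38 (95% interval −0.67 to −0.10) did not pass (edgeR adjusted p = 0.351). Dnajb11 had a log2 difference of −0.26 (SE 0.0761, edgeR adjusted p = 0.295) and Dnajc3 a difference of −0.25 (SE 0.0811, edgeR adjusted p = 0.334). Atf4wt/wt replicates 3 and 4 were the highest in Hspa5, and they also held the largest shares of the Nupr1-led state and of the Malat1-led cluster. With the 3 tumours that had most Malat1-led cells left out, the median difference of the members was −0.05, and with the Nupr1-led state left out it was −0.12. No member passed in either. The tumours left out include both of those highest in Hspa5, so a smaller difference in Hspa5 follows from that choice, and the part of either share in the difference was not tested.

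In CAF-like cells no member passed either, while 1 of 3691 genes did (0.0271%), which was Atf4. Of 27 tested members, 6 (22.2%) had an unadjusted p under 0.05, against 7.80% of all genes, and DESeq2 called none. The differences ran from −1.03 to 0.38 with a median of −0.12, and 9 of 27 were positive. Sdf2l1, Ern1, Eif2ak3, Syvn1, Derl3 and Edem2 had too few counts to be tested. Herpud1 stood at 88.1, 55.9, 109 and 63.0 CPM in the Atf4wt/wt and at 37.4, 39.3, 49.0 and 43.5 CPM in the Atf4D/D tumours. These values did not overlap, and the log2 difference was −0.94 (SE 0.247, 95% interval −1.47 to −0.40, edgeR adjusted p = 0.355). The values of Atf4D/D replicate 3 in CAF-like cells come from 10 cells and rest on few UMIs, so the lack of overlap is fragile. Dnajc3 did not overlap either, with 357, 240.3, 290.5 and 234 CPM against 166, 205, 147 and 192 CPM (−0.57, SE 0.187, edgeR adjusted p = 0.479). Manf and Sdf2l1 were also lower in the Atf4D/D tumours without overlap. Canx went the other way without overlap, at 353 ± 41.6 CPM in the Atf4wt/wt and 426 ± 45.8 CPM in the Atf4D/D tumours. The share of all genes without overlap was not counted.

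Hspa5, Atf6 and Creld2 overlapped between genotypes in CAF-like cells. Hspa5 stood at 1674, 1458, 1648 and 1112 CPM against 1183, 889, 1127 and 1103 CPM (log2 difference −0.44, SE 0.168, edgeR adjusted p = 0.539). Atf6 had a difference of −1.03 (SE 0.396, edgeR adjusted p = 0.534) and Creld2 a difference of −0.65 (SE 0.266, edgeR adjusted p = 0.569). The summed level was 10405, 9381, 10476 and 9505 CPM in the Atf4wt/wt tumours and 9023, 8716, 8133 and 8874 CPM in the Atf4D/D tumours. The sums of the genotypes did not overlap, and they are given without a test.

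**Figure D5:**
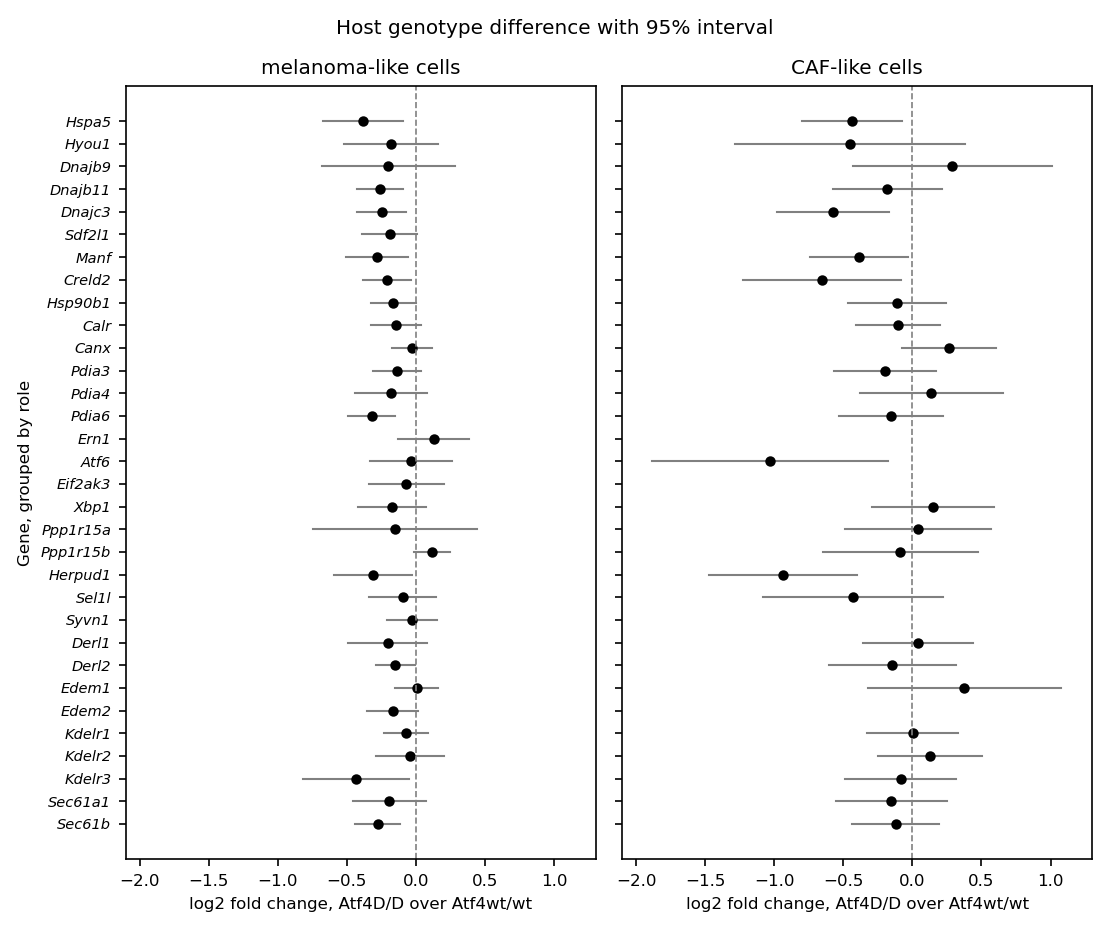
Log2 difference (Atf4D/D minus Atf4wt/wt) from edgeR with its 95% interval for each tested gene in melanoma-like (32 genes) and CAF-like (27 genes) cells, 4 tumours per genotype. Most points lie left of 0, with medians of −0.17 and −0.12, and no gene passed the adjusted threshold in either class.

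In TAM-like cells 0 of 1394 genes passed (0%), and 13 members were tested. None of these had an unadjusted p under 0.05 in edgeR, where 102 genes did, and DESeq2 called 1 gene and no member. The smallest p among members was that of Dnajc3, at 89.1 ± 8.61 (n = 3) and 134 ± 16.6 CPM (n = 4), with a log2 difference of 0.64 (SE 0.309, edgeR adjusted p = 0.663). Manf had −0.33, Sec61b −0.26, Dnajb11 −0.23, Calr 0.16 and Hspa5 0.13, with edgeR adjusted p from 0.757 to 0.901.

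A fit with the tumour as a block tested whether the genotype difference was unequal in the CAF-like and the melanoma-like class. Of 13336 genes, 94 passed (0.705%), and 0 of 32 members did. Atf6 was the only member with an unadjusted p under 0.05 (difference of the log2 differences −0.92, SE 0.370, edgeR adjusted p = 0.468), and DESeq2 called no member. Herpud1 had −0.54, Dnajb9 0.57, Xbp1 0.37 and Kdelr3 0.33. For Hspa5 the value was −0.09, with an interval of −0.44 to 0.26, so that it may go either way. In the same fit 5 of 7 interferon genes, 1 cytosolic heat shock gene and 1 G2 and M gene passed, the last of these lower.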

How the data were processed

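The deposited data are UMI counts per gene and cell barcode for 8 tumours, made by the authors from 10x 3′ libraries with Cell Ranger 3.1.0 on GRCm38, and analysed by them in Seurat 3.2.1, per the labels. The labels name the V3 kit. Barcodes with 200 to 5000 genes and at most 7.5% mitochondrial UMIs were kept, with genes found in at least 3 cells, as in the study's methods. In R 4.3.3 with Seurat 5.3.0, the genotypes were integrated on 2000 variable genes and 20 components and clustered at resolution 0.6 into 15 clusters. A cluster of 243 barcodes with a median mitochondrial share of 7.02% was removed. Sums of UMI counts by tumour and class were used for classes of at least 10 cells.

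Within-tumour ratios were compared for genes with a mean of at least 10 CPM, and a gene counts as higher or lower when every tumour shows it. Genotypes were tested with edgeR 4.0.16 (quasi-likelihood, TMM factors, filterByExpr, Benjamini-Hochberg adjustment over all genes tested, threshold 0.05). DESeq2 1.42.0, other filters and scalings, a replicate block, sex and leaving out each tumour were alternatives, and 4 alternatives were added after seeing the data. Fold changes are printed for Hspa5 and, per class, for the 5 members with the smallest p. The scripts were tested on simulated data.

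The members, lists and states were chosen with earlier results of these data known. The labels call the tumours biological replicates. Tumours of a genotype differed by more than sampling noise. Depth per tumour is given with the results, and intervals from counts cover counting error only, since UMIs of 1 cell share a capture.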

Additional observations from a re-analysis of the deposited data

Results flagged for a closer look

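Hspa5 in TAM-like cells of Atf4D/D replicate 4 stood at 1547 CPM, apart from the other 3 Atf4D/D tumours at 1148 to 1213 CPM. The gap to the nearest tumour was 0.838 of the group's range, above Dixon's 95% critical value for 4 samples. In all, 52 groups of 4 tumours were examined this way, and chance alone sets apart about 1 group in 20. The cause was not tested.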

How the results depend on the processing

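Of 79 recomputed values of the main results, 78 stayed the same by the rule for their kind. Counts of members called had to stay equal, which for most of them means that 0 stayed 0. The share difference had to keep its direction and its side of the threshold. The ratio of states had to move by less than 1 SD of the ratios of single tumours. The exception was the count of members called by host genotype in melanoma-like cells, 0 in edgeR and 2 under DESeq2, which called 116 genes against 4. For single members, 311 of 316 values kept their direction and their side of the threshold. Pdia6 and Sec61b passed under DESeq2. Hspa5 changed sign in TAM-like cells without Atf4wt/wt replicate 4, with a range of −0.080 to 0.433 over the tumours left out, and in the contrast of CAF-like with melanoma-like cells without Atf4wt/wt replicate 1 (0.066) or Atf4D/D replicate 2 (0.038), with a range of −0.33 to 0.066. The cause was not tested. Genes called in CAF-like cells numbered 1 in the chosen fit, 0 to 6 with a tumour left out, 0 with sex as a covariate, 5 under DESeq2 and 116 with no filter on low counts. In the test between the classes they numbered 94, 35 to 126 with a tumour left out, 55 with the collagen and melanoma subcluster and 2 under DESeq2. In melanoma-like cells they numbered 0 to 21 with a tumour left out and 7 with every gene tested. In TAM-like cells they numbered 0, 0 or 1 with a tumour left out and 15 with every gene tested. The share difference of the Nupr1-led state ran from −5.98 to −0.74 points over its alternatives, and the ratio of highest to lowest state from 2.48 to 2.85.

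The genotypes share replicate numbers. With the replicate number as a block, 0 members passed in melanoma-like, CAF-like and TAM-like cells, with smallest edgeR adjusted p of 0.590, 0.517 and 0.740, and genes called numbered 0, 3 and 3. The deviations of same-numbered tumours had correlations of 0.0581, −0.509, −0.435 and −0.462 in melanoma-like cells and −0.200 to 0.225 in CAF-like cells. In melanoma-like cells every Atf4wt/wt tumour correlated best with an Atf4D/D tumour of another number. In CAF-like cells Atf4wt/wt replicates 1 and 4 correlated best with the tumour of the same number. Whether same-numbered tumours were handled together was not tested, and these correlations cannot show it. The depth of 321 TAM-like cells left 20 members untested there.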

Other observations

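The barcodes that the limits on cells left out, 13514 in all, had a summed level of the 33 genes of 7748 to 9759 CPM per tumour (median 8380), against 8352 to 11562 CPM (median 8965) in those kept. Hspa5 was lower in the barcodes left out than in those kept in all 8 tumours, at 1054 to 1625 CPM against 1150 to 2104 CPM. In both sets Atf4wt/wt replicate 4 had the highest and Atf4D/D replicate 4 the lowest Hspa5 level.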
